A study of Homo sapiens with 30 samples.

Results

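The step from 1500 to 3750 nM of SGI-1776 was described in PC3 cells after 48 h of treatment. It rests on 12 of the 30 libraries of the series, the 6 of SGI-1776 3750 nM and the 6 of SGI-1776 1500 nM, chosen by their labels and not by any measured value. PC3 is an established human prostate cancer line. The other groups, of 6 libraries each, were the solvent DMSO and both of the same doses of SGI-1776-VHL-02, a compound with SGI-1776 and VHL in its name from a study of PIM kinase inhibition against degradation. All 5 groups were poly-A RNA sequencing of the same line, and each group divides into Rep 1 and Rep 2 with 3 libraries each. The labels do not say whether the 3 libraries of a Rep came from separate cultures, so p-values measure the spread between these libraries, which may be technical.

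The PIM kinases, which SGI-1776 inhibits, are serine/threonine kinases that act downstream of cytokine receptors to promote cell survival and growth. Kinase inhibitors often slow division, and the genes of mitosis and of DNA replication then fall together because dividing cells make them in S phase and G2. Lysosomal genes and the enzymes of cholesterol synthesis answer to other transcription factors, TFEB and its relatives for the lysosome and SREBP2 for sterols.

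The 12 libraries held 22520292 to 40378649 counts. In Rep 1 the mitochondrially encoded genes took 2.63 to 3.13% of counts at 1500 nM and 1.94 to 3.96% at 3750 nM, and in Rep 2 they took 0.878 to 1.44% and 0.477 to 1.67%. The epithelial markers KRT8, KRT18, EPCAM and CDH1 summed to 950 to 1080 CPM (counts scaled to a library of 1000000) at 1500 nM and 930 to 1110 CPM at 3750 nM, and the mesenchymal marker VIM, which PC3 also expresses, ran from 323 to 352 CPM and from 282 to 305 CPM. KLK3, which PC3 lacks, had no count. The leukocyte markers summed to 0.402 to 0.881 CPM at 1500 nM and to 0.419 to 1.11 CPM at 3750 nM. The fibroblast markers summed to 34.1 to 57.7 CPM and 29.7 to 60.6 CPM, nearly all from COL1A1, while COL1A2 and DCN reached at most 0.125 and 0.166 CPM. LUM was called higher (0.78 ± 0.21) at 0.251 to 0.717 CPM and 0.572 to 1.07 CPM. The endothelial markers summed to 9.65 to 12.3 CPM and 10 to 15 CPM, from PECAM1 and KDR, while CDH5 and VWF were near 0. In both groups the epithelial markers were thus high and the leukocyte markers near 0, and the part of the LUM difference in other results was not tested. Fewer cells of a kind and less RNA per cell cannot be told apart in such bulk samples.

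The dose step was broad and small in size. Of 17499 genes tested, 1601 (9.15%) were called, meaning an adjusted p under 0.05 by the quasi-likelihood test of edgeR, with 780 (4.46%) higher and 821 (4.69%) lower at 3750 nM. With Rep as a block, the paired analysis, 3028 genes (17.3%) were called, 1444 (8.25%) higher and 1584 (9.05%) lower, and they included all 1601. Where the 3 libraries of a Rep were not taken as separate samples the count varied: summed per Rep, 1598 were called with the block and 0 without it (1398 at an unadjusted p under 0.05), and 327 by voom with the libraries of a Rep as correlated. The median size of change among the called genes was 0.21 on the log2 scale. A change of at least 1.5-fold was seen in 64 higher and 19 lower genes, and of at least 2-fold in 7 and 2. The 6 libraries at 3750 nM all lay above or all below the 6 at 1500 nM for 843 genes (4.82%), 2.54% higher and 2.27% lower, of which 765 were called. The median log2 fold change over all tested genes was 0.000325. Without the libraries that held under 0.5% mitochondrially encoded counts, 1610 genes were called.

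Both Reps showed the step. Within Rep 1 alone, 3 libraries against 3, 1865 of 18095 genes (10.3%) were called, 724 (4%) higher and 1141 (6.31%) lower. Within Rep 2 alone 1582 (8.74%) were called, 634 (3.5%) higher and 948 (5.24%) lower. These splits lean on the scaling: with library size only they were 866 higher and 806 lower in Rep 1 and 801 and 715 in Rep 2. With DESeq2-type size factors in edgeR Rep 1 gave 793 and 832. Rep 2 gave 631 and 824 with those factors, so it kept more genes lower than higher there. All 1601 genes called over both Reps had the same direction in each. Those genes were chosen from the same libraries of both Reps, which favours such agreement, so it is no separate test. The difference between the Reps in the dose step was called for 0 genes by edgeR, with 1643 at an unadjusted p under 0.05, and DESeq2 called 1. The counts within a Rep depended on single libraries. Rep 1 gave 1049, 1121 and 1030 genes without SGI-1776 1500 nM replicates 1, 2 and 3 and 1217 and 1099 without SGI-1776 3750 nM replicates 1 and 2. Rep 2 gave 1047 and 656 without SGI-1776 1500 nM replicates 4 and 5 and 697 without SGI-1776 3750 nM replicate 6.

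**Figure D1:**
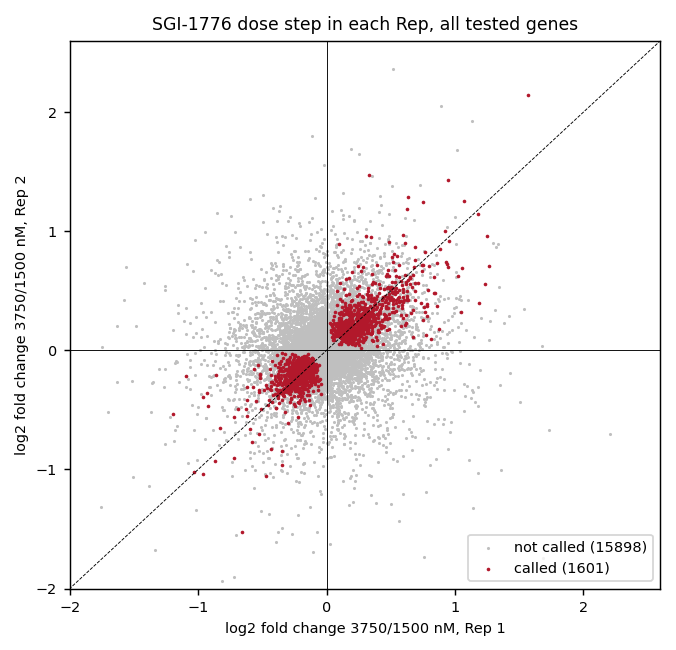
Log2 fold change of 3750 over 1500 nM SGI-1776 in Rep 1 (x axis) and in Rep 2 (y axis) for each tested gene, with the 1601 called genes in red, the others in grey and the dashed line where both Reps are equal; 4 genes lie outside the axes. Every red point lies in the quadrant where both Reps are above 0 or both below 0, which the choice of red genes from both Reps favours.

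Of the 3 PIM genes PIM1 rose. It ran from 31.5 to 38.7 CPM (median 35.2) at 1500 nM and from 43 to 47 CPM (median 43.8) at 3750 nM, and the groups did not overlap. The log2 fold change was 0.32 ± 0.04 (SE; edgeR adjusted p = 1.59e-05), with 0.26 in Rep 1 and 0.36 in Rep 2. PIM2 had medians of 28 and 26.9 CPM and PIM3 of 49.7 and 52.9 CPM, and neither passed (edgeR adjusted p = 0.702 and 0.703). VHL, the ubiquitin ligase subunit named in the other compound, had medians of 105 and 103 CPM (edgeR adjusted p = 0.765).

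The genes that rose most, by a rule given with the methods, were of mixed kind. CADM2, a cell adhesion molecule, ran from 2.95 to 4.46 CPM (median 3.53) at 1500 nM and from 4.85 to 8.57 CPM (median 6.28) at 3750 nM, a log2 fold change of 0.86 ± 0.14. LRMDA, a leucine-rich repeat protein of melanocyte differentiation, ran from 5.77 to 7.37 CPM (median 6.4) and then from 10.3 to 12.5 CPM (median 11.1), 0.79 ± 0.10. AQP3, a water and glycerol channel, ran from 2.87 to 3.9 CPM (median 3.12) and then from 5.07 to 5.9 CPM (median 5.57), 0.74 ± 0.11. In all 3 every library at 3750 nM lay above every library at 1500 nM. The other genes of this rank were CDH12, a cadherin (0.74 ± 0.17), TDRD6, a Tudor-domain protein of germ cells (0.73 ± 0.13), LAMA4, a laminin chain (0.70 ± 0.12), PIK3IP1, an inhibitor of PI3 kinase (0.68 ± 0.11), and NUPR1, a stress-induced nuclear protein (0.65 ± 0.11). Their groups did not overlap either. MAGED4 had the highest value (1.85 ± 0.60), but it has the near-identical copy MAGED4B, ran from 2.61 to 15.7 CPM at 3750 nM and lost its call without 10 of the 12 libraries, so its value is uncertain.

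The genes that fell most included secreted and matrix proteins. TNC, the matrix glycoprotein tenascin C, ran from 43.6 to 56.4 CPM (median 51.2) at 1500 nM and from 26.8 to 38.2 CPM (median 33.8) at 3750 nM, a log2 fold change of -0.61 ± 0.10. COL6A3, a chain of collagen VI, ran from 97.5 to 119 CPM (median 109) and then from 63.3 to 85.1 CPM (median 73), -0.57 ± 0.07. PTX3, a soluble pattern recognition protein, ran from 27.3 to 32 CPM (median 29.4) and then from 21.3 to 22.5 CPM (median 22.1), -0.43 ± 0.04. The groups did not overlap in any of these. SEMA7A, a membrane semaphorin (-0.43 ± 0.06), and S1PR3, a receptor for sphingosine-1-phosphate (-0.43 ± 0.06), also had groups that did not overlap. The homeobox factors HLX (-0.49 ± 0.11) and GBX2 (-0.47 ± 0.12), the heparan sulfate enzyme HS3ST5 (-0.45 ± 0.11) and the kinase SGK1 (-0.42 ± 0.11) fell with groups that overlapped. MGAT5B, a glycosyltransferase (-0.43 ± 0.14), lost its call without 9 of the 12 libraries.

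Genes of cell division fell in all 4 of the lists that hold them. Of 93 tested genes in 4 lists, which cover mitotic kinases and cyclins, kinesins, centromere and kinetochore, and cytokinesis, 70 fell and 0 rose at 3750 nM, 92 had a log2 fold change below 0, and 43 had groups that did not overlap. Over all tested genes 4.69% fell, 4.46% rose and 2.27% lay lower without overlap. The median of the 4 lists was -0.22 (-0.21 in Rep 1 and -0.25 in Rep 2), against 0.000325 over all tested genes. With Rep as a block 78 fell. The lowest value was that of CDC20 and the highest that of PRC1, at 0.19, which did not pass.

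CDC20 activates the anaphase-promoting complex and so starts the separation of the chromosomes. It ran from 142 to 153 CPM (median 148) at 1500 nM and from 107 to 117 CPM (median 115) at 3750 nM, with no overlap, a log2 fold change of -0.37 ± 0.04 (edgeR adjusted p = 8.14e-08). Among mitotic kinases, cyclins and activators 24 of 32 fell, with a median of -0.21. PLK1, a kinase of spindle assembly, had medians of 96 and 77.5 CPM (-0.32 ± 0.04), MYBL2, a transcription factor for mitotic genes, 172 and 137 CPM (-0.32 ± 0.03) and MELK, a kinase of dividing cells, 46.8 and 37.9 CPM (-0.31 ± 0.05). In each of the 3 all libraries at 3750 nM were below all at 1500 nM.

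Among kinesins, the motors of the spindle, 10 of 13 fell (median -0.23). KIF20A, which acts in cytokinesis, ran from 65.1 to 70.6 CPM (median 69.2) at 1500 nM and from 51.8 to 58.3 CPM (median 54.7) at 3750 nM, -0.32 ± 0.03, with no overlap. CENPE, which brings chromosomes to the spindle equator, fell by 0.32 ± 0.06, KIF23 of the central spindle by 0.28 ± 0.04 and KIF14 of the midbody by 0.27 ± 0.07 on the log2 scale. KIF14 overlapped between the groups and lost its call without 1 of the 12 libraries.

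Of the centromere, kinetochore and condensin genes 26 of 36 fell (median -0.22). CENPA, the histone variant that marks the centromere, ran from 31 to 35.9 CPM (median 32.8) at 1500 nM and from 23.6 to 28.1 CPM (median 25.8) at 3750 nM, -0.37 ± 0.05, with no overlap. CENPI had the value -0.37 ± 0.05, KNL1, the scaffold of the outer kinetochore, -0.33 ± 0.08, and SPC24 of the NDC80 complex -0.32 ± 0.07, with -0.53 in Rep 1 and -0.12 in Rep 2 for SPC24. Of 13 genes of cytokinesis and chromatin bridges 11 fell (median -0.24), among them GTSE1 (-0.32 ± 0.04), CEP55 of the abscission site (-0.29 ± 0.06), HMMR (-0.26 ± 0.04) and the citron kinase CIT (-0.26 ± 0.05).

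Many promoters of these genes carry the cell cycle homology region (CHR), an element bound by the DREAM and MuvB complexes. The letters TTTGAA or TTCGAA were searched on both strands from 250 bases before to 50 bases after the start in the RefSeq promoters of GRCh38.p14, CHR letters stood in 11.1% of the promoters of 11347 tested genes, in 12 of 23 promoters of mitotic kinases and cyclins, 10 of 13 of kinesins, 22 of 30 of centromere genes and 11 of 11 of cytokinesis genes. Over all tested genes with a promoter, 10.4% of those with the letters and 5.24% of those without fell. Within the 4 cell division lists the letters did not sort the genes, since 39 of 54 with them (median -0.23) and 19 of 22 without them (median -0.22) fell. The letters CCAAT, which lie near the CHR in many such promoters, stood in 36% of promoters of tested genes and in 15, 10, 18 and 10 of the promoters of the 4 lists in the same order. A match is a description of the letters and not a bound site. The 150 bases before the start are shown for 4 genes that fell, 5′ to 3′ on the gene's strand, with the CHR letters in capitals. These 4 were chosen among called genes that hold the letters there.

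CDC20 (chr1:43358831-43358980, + strand): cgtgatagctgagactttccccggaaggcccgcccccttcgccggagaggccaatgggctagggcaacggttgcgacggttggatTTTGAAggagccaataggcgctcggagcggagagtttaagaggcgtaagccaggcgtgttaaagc
PLK1 (chr16:23678739-23678888, + strand): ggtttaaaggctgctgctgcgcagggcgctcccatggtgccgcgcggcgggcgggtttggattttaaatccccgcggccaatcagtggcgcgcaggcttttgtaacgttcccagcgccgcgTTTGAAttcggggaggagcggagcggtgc
KIF23 (chr15:69414199-69414348, + strand): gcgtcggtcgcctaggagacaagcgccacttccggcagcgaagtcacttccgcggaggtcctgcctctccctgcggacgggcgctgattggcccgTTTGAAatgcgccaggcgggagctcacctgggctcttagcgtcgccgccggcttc
CENPA (chr2:26785906-26786055, + strand): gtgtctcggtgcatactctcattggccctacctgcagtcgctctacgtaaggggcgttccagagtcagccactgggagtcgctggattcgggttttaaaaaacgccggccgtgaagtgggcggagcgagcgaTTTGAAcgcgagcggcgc

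**Figure D2:**
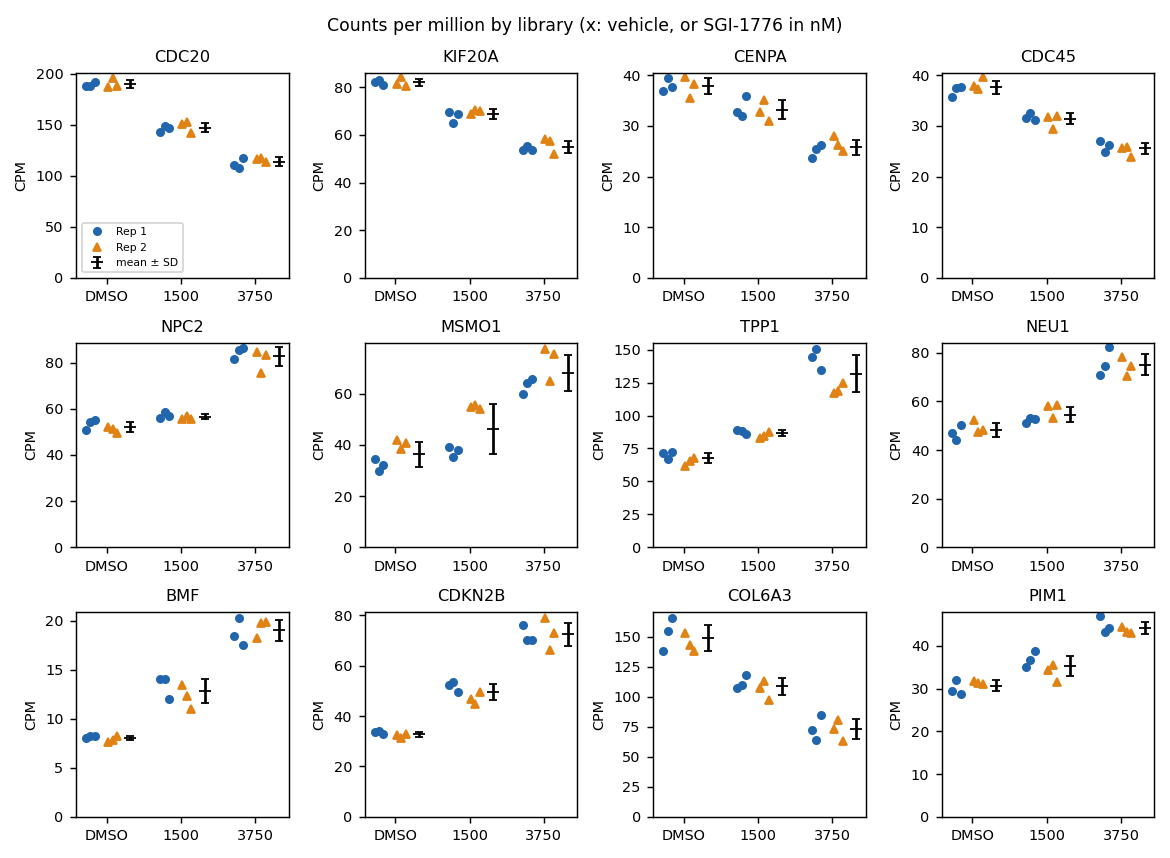
CPM (y axis, from 0) of 12 genes in DMSO, 1500 and 3750 nM SGI-1776 (x axis), with Rep 1 libraries as blue circles, Rep 2 as orange triangles and the mean ± SD of 6 libraries in black. In each panel the 6 libraries at 3750 nM lie above or below all 6 at 1500 nM.

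Genes of DNA replication fell as well, by less. Over 66 tested genes of origin licensing and the replication fork, E2F factors and S phase cyclins, and nucleotide synthesis, 36 fell and 0 rose, all 66 were below 0, and the median was -0.16. The shares over all tested genes were 4.69% lower and 4.46% higher. For origin and fork genes alone 23 of 39 fell (median -0.16), and 14, 15 and 14 fell without SGI-1776 1500 nM replicates 4 and 5 and SGI-1776 3750 nM replicate 1. The 3 lists together had 23 lower without the last of these and 24 without SGI-1776 1500 nM replicate 5. CDC45, a part of the replicative helicase, ran from 29.4 to 32.6 CPM (median 31.6) at 1500 nM and from 23.9 to 27.1 CPM (median 25.8) at 3750 nM, -0.30 ± 0.04, with no overlap and about the same value in both Reps (-0.31 and -0.31). GINS4 of the same helicase (-0.29 ± 0.06), the checkpoint protein CLSPN (-0.26 ± 0.06) and ORC1 of the origin complex (-0.24 ± 0.07) fell, ORC1 with a call that ended without 1 library. UHRF1, which reads hemimethylated DNA, had medians of 172 and 137 CPM (-0.30 ± 0.05), and DNMT1, which copies the methylation, 354 and 300 CPM (-0.24 ± 0.04), both without overlap. Both belong to the list of E2F factors and S phase cyclins.

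Of 10 genes in the list of E2F factors and S phase cyclins 4 fell. They were UHRF1 and DNMT1, given above, E2F1 (-0.19 ± 0.04) and its partner TFDP1 (-0.15 ± 0.03). With the block 7 fell, and 7 did without SGI-1776 3750 nM replicate 5. Of 17 genes of nucleotide synthesis 9 fell, and 5 did without SGI-1776 1500 nM replicate 5 or without SGI-1776 3750 nM replicate 1. The thymidylate synthase gene TYMS had medians of 79.8 and 66.5 CPM (-0.27 ± 0.05), the thymidine kinase gene TK1 275 and 240 CPM (-0.25 ± 0.05), and the purine enzyme PAICS 392 and 346 CPM (-0.20 ± 0.04). TYMS, RAD54L, CCT5, PLAU, DDIT3 and FTH1 share part of their exon bases with a gene on the opposite strand and ITGB3 with a gene on the same strand. Whether the counting used strand is not given, so reads of these genes may be mixed with those of the partner.

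Of 17 genes of repair by homologous recombination 6 fell, among them EXO1, a nuclease (-0.25 ± 0.05), BRCA1 (-0.21 ± 0.05), FANCI (-0.20 ± 0.04) and RAD54L (-0.27 ± 0.09), whose call ended without 7 of the 12 libraries. The letters TTTGGCG or TTTCCCG of the E2F element, searched on both strands as above, stood in 9.17% of promoters of tested genes and in 19 of 34 promoters of origin and fork genes. The promoter of CDC45, which fell without overlap, was chosen for holding the element and is shown with it in capitals.

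CDC45 (chr22:19479770-19479919, + strand): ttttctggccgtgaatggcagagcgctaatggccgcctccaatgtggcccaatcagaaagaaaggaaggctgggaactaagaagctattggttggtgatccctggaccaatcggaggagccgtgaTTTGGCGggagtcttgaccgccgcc

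Of 15 CDK inhibitors and G1 genes 2 rose and 3 fell. CDKN2B, the inhibitor p15 of CDK4 and CDK6, ran from 44.9 to 53.5 CPM (median 49.5) at 1500 nM and from 66.3 to 78.9 CPM (median 71.6) at 3750 nM, a log2 fold change of 0.55 ± 0.05 (edgeR adjusted p = 4.42e-08), with 0.46 in Rep 1 and 0.62 in Rep 2. CCNG2, the cyclin of resting cells, rose by 0.26 ± 0.06. CDK2 (-0.24 ± 0.04) and CCND3 (-0.20 ± 0.04), which drive the cycle, fell, and all 4 genes had groups that did not overlap. CDKN2C, the inhibitor p18 of the same kinases as p15, fell (-0.14 ± 0.04). Of 35 genes of MYC and ribosome biogenesis 5 fell, 9 with the block, such as the spermidine synthase gene SRM (-0.25 ± 0.04), NME1 (-0.22 ± 0.04), GRWD1 (-0.19 ± 0.03) and BOP1 (-0.18 ± 0.05). Ribosomal protein genes went the other way, with 15 of 40 higher and 0 lower (median 0.11), 5 higher and 1 lower in Rep 1 alone and 14 higher in Rep 2 alone. With the block 26 rose, but 8 rose without the libraries under 0.5% mitochondrially encoded counts, and 9 without SGI-1776 3750 nM replicate 3, 4 or 6. RPL23 (0.24 ± 0.04), RPL34 (0.20 ± 0.04), RPL37 (0.18 ± 0.05) and RPS3 (0.18 ± 0.04) were the highest of them by the naming rule, and since these genes have many pseudogene copies their counts are uncertain.

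**Figure D3:**
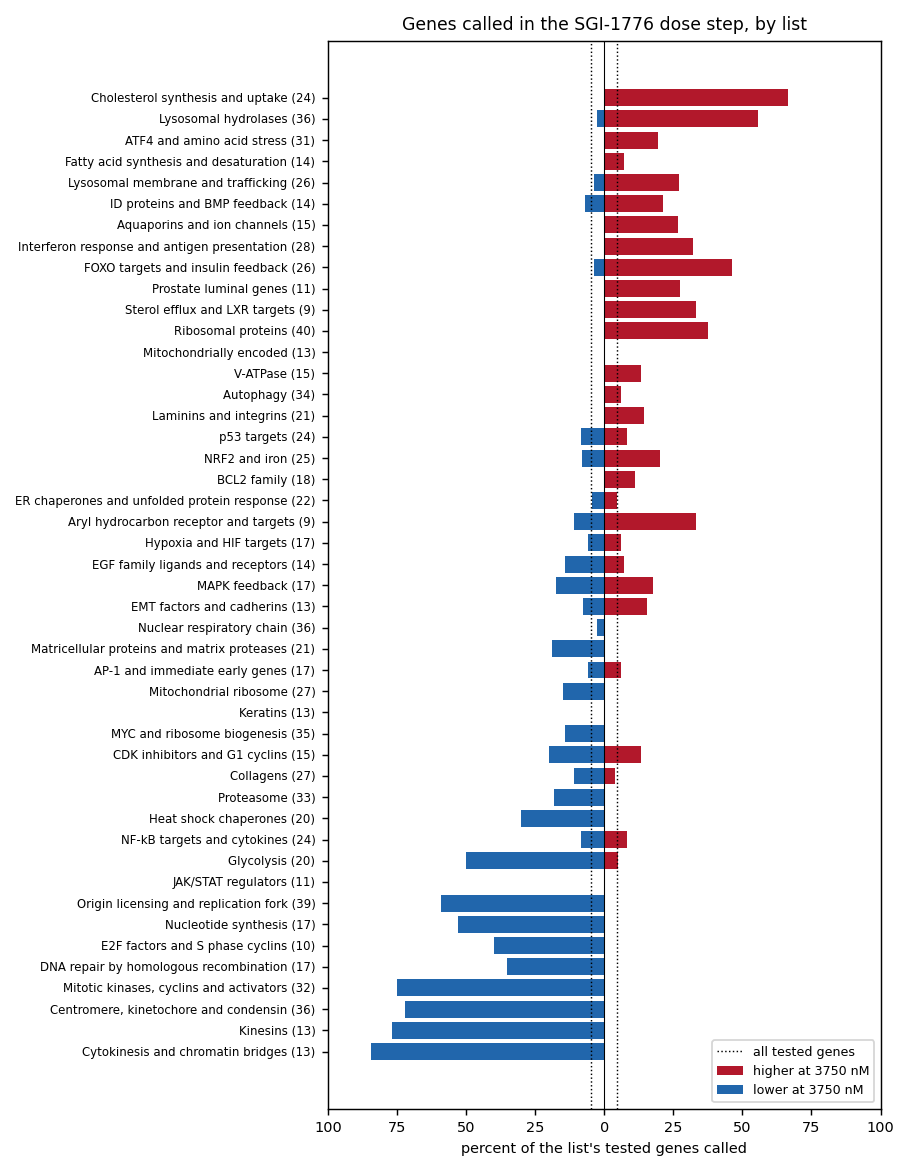
Percent of each list's tested genes (number in brackets) called higher (red, right) or lower (blue, left) in the SGI-1776 dose step, with lists ordered by their median log2 fold change and dotted lines at the shares over all tested genes, 4.46% higher and 4.69% lower. The 4 lists of cell division stand at the bottom and those of cholesterol synthesis and lysosomal hydrolases at the top.

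Genes of cholesterol synthesis and uptake rose. Of 24 tested, 16 rose and 0 fell and 13 lay higher without overlap. Over all tested genes 4.46% rose and 2.54% lay higher without overlap. The list had a median log2 fold change of 0.35 (0.42 in Rep 1 and 0.28 in Rep 2), and with Rep as a block 23 of its genes rose. MSMO1, a sterol demethylase, ran from 35.4 to 55.7 CPM (median 46.7) at 1500 nM and from 59.8 to 77.5 CPM (median 65.2) at 3750 nM, 0.55 ± 0.13. The Reps lay at different levels in this gene, with means at 1500 nM of 37.5 CPM in Rep 1 and 54.9 CPM in Rep 2, and each Rep rose by itself (0.74 and 0.40). HMGCS1, which makes HMG-CoA, had medians of 67.8 and 95.1 CPM (0.48 ± 0.12), and TM7SF2, a sterol reductase, 106 and 145 CPM (0.45 ± 0.07), both without overlap.

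Proteins that move sterols out of lysosomes and cells were less uniform. NPC2, which hands cholesterol from the lysosome to its transporter, ran from 55.7 to 58.7 CPM (median 56.5) at 1500 nM and from 75.4 to 86.2 CPM (median 83.9) at 3750 nM, 0.55 ± 0.03 (edgeR adjusted p = 5.7e-12). The gap between the groups was wide next to the spread within either, and the Reps had 0.54 and 0.53. Of 9 genes of sterol efflux and LXR targets 3 rose, and 1 did without SGI-1776 1500 nM replicate 5. These were NPC2, APOE (0.43 ± 0.12, with 0.20 in Rep 1 and 0.66 in Rep 2), and NR1H2, the receptor LXR beta (0.12 ± 0.04). The call of NR1H2 ended without 8 and that of APOE without 2 of the 12 libraries. Of 14 genes of fatty acid synthesis only ACSS2, which makes acetyl-CoA from acetate, rose (0.24 ± 0.04), and with Rep as a block 7 rose. The letters CACCCCA of the sterol element core, searched on both strands, stood in 7.45% of promoters of tested genes and in 4 of 18 of this list. MVD, the decarboxylase that makes isopentenyl diphosphate, was chosen for holding the letters. It is shown with them in capitals, read on the other strand as TGGGGTG.

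MVD (chr16:88663092-88663241, - strand): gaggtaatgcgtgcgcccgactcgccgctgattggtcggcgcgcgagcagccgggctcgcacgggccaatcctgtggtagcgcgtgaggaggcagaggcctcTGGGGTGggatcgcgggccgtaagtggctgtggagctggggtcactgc

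Lysosomal hydrolases rose. Of 36 tested, 20 rose, 1, the protease gene CTSB, fell, and 15 lay higher without overlap between the groups. The shares over all tested genes were 4.46% higher, 4.69% lower and 2.54% higher without overlap. The median of the list was 0.21 (0.20 in Rep 1 and 0.16 in Rep 2). TPP1, a peptidase, ran from 83.2 to 89 CPM (median 86.7) at 1500 nM and from 117 to 151 CPM (median 130) at 3750 nM, 0.61 ± 0.05 (edgeR adjusted p = 7.15e-09). NEU1, the sialidase, ran from 51.1 to 58.5 CPM (median 53.2) and then from 70.6 to 82.2 CPM (median 74.6), 0.46 ± 0.05. The cathepsins CTSF (0.41 ± 0.05) and CTSO (0.41 ± 0.10) followed, and none of the 4 overlapped.

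The rest of the organelle moved less. Of 26 genes of the lysosomal membrane and its trafficking 7 rose and 1 fell (median 0.14), 14 rose with the block, and 4 rose without SGI-1776 1500 nM replicate 3 or SGI-1776 3750 nM replicate 2. FNIP1, a partner of folliculin in nutrient sensing, had medians of 24.2 and 30.7 CPM (0.32 ± 0.05) without overlap, and FLCN, folliculin itself, 21.9 and 26.9 CPM (0.34 ± 0.10). The GTPase RRAGD (0.60 ± 0.18) and the glycoprotein GPNMB (0.95 ± 0.30) rose at levels near 1 CPM or below, and the calls of FLCN, RRAGD and GPNMB ended without 5, 5 and 8 of the 12 libraries. Of 15 subunits of the proton pump 2 rose, 5 with the block, among them ATP6AP1 (0.17 ± 0.04). Of 34 autophagy genes 2 rose (5.88%, against 4.46% over all tested genes) and 0 fell. With Rep as a block 8 rose and 1 fell. The receptor SQSTM1 ran from 275 to 308 CPM (median 286) at 1500 nM and from 347 to 414 CPM (median 373) at 3750 nM, 0.39 ± 0.06, without overlap.

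TFEB and its relatives bind the letters CACGTG within their sites. These letters are the same on both strands and stood in 9.91% of promoters of tested genes, in 5 of 24 promoters of lysosomal hydrolases, 8 of 23 of lysosomal membrane genes, 4 of 10 of proton pump genes and 1 of 31 of autophagy genes. Lists with members that fell held them as well, in 12 of 29 promoters of the MYC and ribosome biogenesis list and 5 of 15 of nucleotide synthesis. Of the tested genes with the letters 6.84% rose, and of those without them 4.86%. Both hydrolases below rose without overlap and were chosen for holding the letters, which the capitals mark.

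NEU1 (chr6:31862822-31862971, - strand): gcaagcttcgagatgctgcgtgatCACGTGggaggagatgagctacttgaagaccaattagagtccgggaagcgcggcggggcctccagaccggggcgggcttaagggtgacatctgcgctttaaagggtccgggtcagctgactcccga
CTSF (chr11:66568607-66568756, - strand): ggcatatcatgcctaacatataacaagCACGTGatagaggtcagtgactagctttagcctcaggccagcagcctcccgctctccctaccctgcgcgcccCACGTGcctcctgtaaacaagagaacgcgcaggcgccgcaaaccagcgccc

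**Figure D4:**
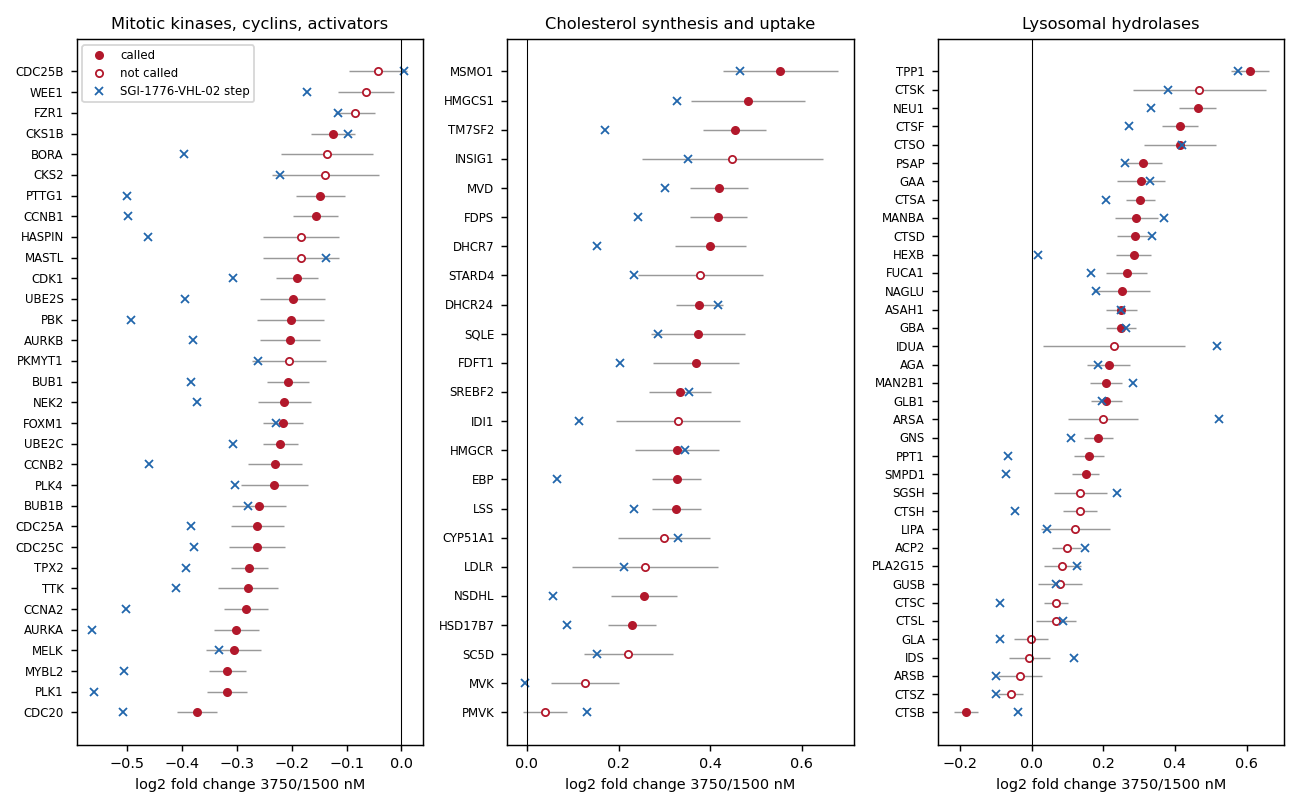
Log2 fold change of 3750 over 1500 nM SGI-1776 (circles, filled where called, bars ± SE) and of the same step of SGI-1776-VHL-02 (blue crosses) for the members shown of 3 lists. The 32 mitotic members all have circles below 0, the 23 cholesterol members all have circles above 0, and 31 of the 36 hydrolases have circles above 0.

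Targets of FOXO factors, which act when AKT signalling is low, rose. Of 26 tested, 12 rose (46.2%) and 1 fell (3.85%), against 4.46% and 4.69% over all tested genes. In the list 9 lay higher without overlap (median 0.13), against a share of 2.54% over all tested genes. Without SGI-1776 3750 nM replicate 1, 7 rose. KLHL24, a substrate adaptor of a ubiquitin ligase, ran from 22.1 to 29.7 CPM (median 26) at 1500 nM and from 34.3 to 43.6 CPM (median 36.9) at 3750 nM, 0.51 ± 0.09. The autophagy factor TP53INP1 (0.47 ± 0.11) and the ubiquitin ligase subunit FBXO32 (0.41 ± 0.06) also rose without overlap. In the BCL2 family 2 of 18 rose and 0 fell. BMF, which binds and blocks survival proteins of the family, ran from 11 to 14.1 CPM (median 12.9) and then from 17.5 to 20.2 CPM (median 19.1), 0.57 ± 0.06 (edgeR adjusted p = 9.33e-07), without overlap. GDF15, a secreted stress factor in the list of p53 targets, ran from 157 to 200.1 CPM (median 174) and then from 249 to 319 CPM (median 266), 0.64 ± 0.12, while PLK2 (-0.25 ± 0.04) and AEN (-0.17 ± 0.05) of the same list fell, AEN with a call that ended without 5 libraries. In that list 2 of 24 rose and 2 fell (8.33% each), against 4.46% and 4.69% over all tested genes. With the block 6 rose and 2 fell, and p53 activity was not tested.

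Matrix genes beyond those named fell in small number. Of 27 genes in the list of collagens 1 rose, COL17A1 (0.45 ± 0.13, with a call that ended without 3 libraries). In that list 3 fell, COL6A3, COL12A1 (-0.35 ± 0.09) and the crosslinking enzyme LOXL2 (-0.26 ± 0.05). With the block 3 rose and 7 fell. Of 21 matricellular proteins and proteases 4 fell and 0 rose, and 2 fell without SGI-1776 1500 nM replicate 4 or 5 or SGI-1776 3750 nM replicate 1 or 2. Besides TNC these included the plasminogen activators PLAT, with medians of 144 and 118 CPM (-0.28 ± 0.09), and PLAU, with 535 and 444 CPM (-0.26 ± 0.08), whose calls ended without 6 and 4 of the 12 libraries. LOXL2 fell without overlap, and so did the intermediate filament VIM (-0.21 ± 0.03). Of 21 laminins and integrins 3 rose (5 with the block), LAMA4, ITGB3 (0.64 ± 0.17) and ITGB4 (0.14 ± 0.04), the last with a call that ended without 11 of the 12 libraries.

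Few genes of NF-kB and cytokines were called. Of 24 tested, 2 rose and 2 fell (8.33% each), against 4.46% and 4.69% over all tested genes. The chemokine CXCL2 (0.70 ± 0.15) and the growth factor CSF1 (0.63 ± 0.15) rose, and the cytokines IL1B (-0.37 ± 0.08) and IL18 (-0.21 ± 0.05) fell, with no overlap for IL18. Of 28 interferon response genes 9 rose and 0 fell (median 0.13). The count rested on single libraries, with 4 without the libraries under 0.5% mitochondrially encoded counts and 2 to 4 without any 1 of 8 libraries, SGI-1776 1500 nM replicates 1, 3 and 6 and SGI-1776 3750 nM replicates 1, 2, 3, 4 and 6. These included OAS1 (0.29 ± 0.09), IFIT3 (0.28 ± 0.09), IFIT1 (0.25 ± 0.08) and IFIT2 (0.20 ± 0.06), whose calls ended without 8, 10, 9 and 9 of the 12 libraries. JAK/STAT regulators had 0 of 11 called by edgeR, and 2 fell with Rep as a block.

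Genes of the aryl hydrocarbon receptor rose in small number, with 3 of 9 higher and 1 lower. CYP1A1, a monooxygenase of xenobiotics, ran from 11.5 to 13.4 CPM (median 12.6) at 1500 nM and from 15.8 to 19.5 CPM (median 17.2) at 3750 nM, 0.47 ± 0.11. CYP1B1 had medians of 96.5 and 135 CPM (0.43 ± 0.08) and TIPARP, a feedback inhibitor of the receptor, 150 and 184 CPM (0.32 ± 0.05), and none of the 3 overlapped. NQO1 fell (-0.13 ± 0.03), with a call that ended without 3 libraries. Of 25 genes of NRF2 and iron 5 rose and 2 fell, 5 fell with the block, and 3 rose without SGI-1776 1500 nM replicate 4 or 5 or SGI-1776 3750 nM replicate 3. The iron exporter SLC40A1 (0.37 ± 0.07) and the ferritin chain FTH1 (0.29 ± 0.04) rose without overlap, and the aldo-keto reductases AKR1C1 (0.49 ± 0.16) and AKR1C3 (0.33 ± 0.10) lost their calls without 8 and 4 of the 12 libraries and have near relatives that can share reads.

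Of 11 prostate luminal genes 3 rose. TMPRSS2, a serine protease, had medians of 41.6 and 51.3 CPM (0.34 ± 0.09), the homeobox gene HOXB13 832 and 924 CPM (0.16 ± 0.04) and FOLH1, which encodes PSMA, 3.24 and 5.09 CPM (0.64 ± 0.16). Their calls ended without 1, 4 and 0 of the 12 libraries. Of 14 ID and BMP feedback genes 3 rose, SMAD9 (0.37 ± 0.08), ID2 (0.28 ± 0.05) and ID3 (0.19 ± 0.06), and 1 fell, SMAD6 (-0.18 ± 0.06), with 6 and 1 under the block. Without 6 of the 12 libraries ID3 was not called, and likewise SMAD6. Of 15 aquaporins and ion channels 4 rose, or 2 without SGI-1776 1500 nM replicate 3 or 6 or SGI-1776 3750 nM replicate 1, 2 or 3, among them AQP3 and the potassium channel KCNN4 (0.25 ± 0.06).

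In metabolism, some genes of glycolysis fell. Of 20 genes 10 fell and 1 rose (median -0.13), but 4 fell without SGI-1776 3750 nM replicate 1. GPI, which isomerises glucose phosphate, ran from 356 to 380 CPM (median 360) at 1500 nM and from 305 to 330 CPM (median 318) at 3750 nM, -0.19 ± 0.03, without overlap. PGAM1 (-0.19 ± 0.05) and LDHA (-0.19 ± 0.05) fell with groups that overlapped and calls that ended without 2 and 3 libraries, and ALDOC rose (0.32 ± 0.10) with a call that ended without 8. Of 17 hypoxia genes 1 rose and 1 fell (5.88% each, against 4.46% and 4.69% over all tested genes). The gene that fell was the carbonic anhydrase CA12 (-0.32 ± 0.06), and with the block 4 fell. The respiratory chain had 1 of 36 nuclear genes lower (5 with the block), UQCRC1 (-0.12 ± 0.03), with a call that ended without 2 libraries, and 0 of 13 mitochondrially encoded genes were called by edgeR, also 0 with the block. Of 27 genes of the mitochondrial ribosome 4 fell, 7 with the block, 2 without SGI-1776 1500 nM replicate 5 and 1 without SGI-1776 3750 nM replicate 1, among them MRPS10 (-0.17 ± 0.04), MRPL37 (-0.13 ± 0.03) and MRPL4 (-0.13 ± 0.04), whose calls ended without 2, 1 and 9 libraries.

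Some genes of protein quality control fell. Of 20 heat shock chaperones 6 fell and 0 rose, 12 with the block, among them BAG3, a cochaperone, from 122 to 150 CPM (median 128) at 1500 nM and from 96 to 117 CPM (median 110) at 3750 nM (-0.28 ± 0.05), HSPD1 (-0.19 ± 0.03), CCT5 (-0.19 ± 0.04) and HSPH1 (-0.18 ± 0.04). Of 33 proteasome genes 6 fell, such as PSMD2 (-0.20 ± 0.04) and PSMD11 (-0.15 ± 0.03), and 14 fell and 1 rose with Rep as a block, while 3 fell without SGI-1776 1500 nM replicate 4 or 5 or SGI-1776 3750 nM replicate 1 or 2. Of 31 genes of ATF4 and amino acid stress 6 rose, 11 with the block, and 0 fell (median 0.15). Among those that rose were DDIT3, which encodes CHOP (0.47 ± 0.09), ADM2 (0.31 ± 0.10) and STC2 (0.28 ± 0.07). In the list of ER chaperones and the unfolded protein response ERN1 rose (0.15 ± 0.04). The calls of ADM2 and ERN1 ended without 10 and 3 of the 12 libraries.

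Feedback genes of growth factor signalling moved in both directions. The MAPK feedback list had 17.6% of its genes higher and 17.6% lower, against 4.46% and 4.69% over all tested genes. Of 17 MAPK feedback genes 3 rose and 3 fell (5 rose with the block, 1 without the libraries under 0.5% mitochondrially encoded counts and 1 without any of 6 single libraries, SGI-1776 1500 nM replicates 1, 4 and 6 and SGI-1776 3750 nM replicates 1, 3 and 4), with SPRED3 (-0.22 ± 0.05), DUSP7 (-0.15 ± 0.04, with a call that ended without 4 libraries) and PHLDA1 (-0.15 ± 0.04) lower and the ETS factor ETV1 (0.27 ± 0.06) higher. JUN, the AP-1 subunit, fell from a median of 64.5 to 55.6 CPM (-0.24 ± 0.04) and ERRFI1, an inhibitor of the EGF receptor, from 207 to 176 CPM (-0.26 ± 0.06), both without overlap. Of 13 keratins and of 6 metallothioneins 0 were called by edgeR; with the block 1 keratin rose and 3 fell. Of 14 EGF family genes 1 rose, the receptor ERBB3 (0.20 ± 0.06), and 2 fell, among them the ligand HBEGF (-0.23 ± 0.07), with calls that ended without 3 and 7 libraries. Of 13 genes of epithelial-mesenchymal transition 2 rose and 1 fell (15.4% and 7.69%). Of 22 ER chaperone genes 1 rose, ERN1, and 1 fell (4.55% each). Of 17 AP-1 genes 1 rose and 1 fell (5.88% each), and of 6 neuroendocrine genes 1 rose. The ER chaperone and AP-1 shares were near the 4.46% higher and 4.69% lower over all tested genes. With the block 3 EGF family, 3 ER chaperone and 2 AP-1 genes rose and 2 genes of epithelial-mesenchymal transition fell.

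The dose step of SGI-1776-VHL-02 was compared by the interaction, which is the SGI-1776 step less the SGI-1776-VHL-02 step. It was called for 468 genes (2.67%), 178 (1.02%) higher and 290 (1.66%) lower, and with Rep as a block for 1086 (6.21%), 2.77% higher and 3.43% lower. The SGI-1776-VHL-02 step called 3320 genes (19%), 9.23% higher and 9.74% lower. In the 4 lists of cell division 12 genes, 26 with the block, had a smaller fall under SGI-1776 and 0 a larger one, and the medians were -0.22 for SGI-1776 and -0.38 for SGI-1776-VHL-02. KIF20A fell by 0.32 ± 0.03 and by 0.61 ± 0.03 (interaction 0.29, edgeR adjusted p = 6.03e-05), and PLK1 by 0.32 ± 0.04 and by 0.56 ± 0.04 (interaction 0.24, edgeR adjusted p = 0.00468). For CDC20 the interaction was 0.13 (95% interval 0.03 to 0.24, edgeR adjusted p = 0.22), and for PIM1 it was 0.02 (95% interval -0.11 to 0.15).

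The ATF4 list separated the compounds. The SGI-1776 step called 6 of its 31 genes higher with a median of 0.15, the SGI-1776-VHL-02 step called 30 with a median of 0.72, and 23 had a lower value under SGI-1776 by the interaction. ADM2 had medians of 5.76 and 7.27 CPM over the SGI-1776 step and of 6.64 and 22.4 CPM over the SGI-1776-VHL-02 step, an interaction of -1.42 ± 0.13 (edgeR adjusted p = 2.45e-08). STC2 differed by -0.52 ± 0.09 and NUPR1 by -0.82 ± 0.15. CHAC1, which degrades glutathione, had 0.42 ± 0.16 in the SGI-1776 step, which did not pass (edgeR adjusted p = 0.0894; 0.00247 with Rep as a block, which passed), and 1.5 ± 0.15 in the other.

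Other genes stepped in opposite directions. The placental alkaline phosphatase gene ALPP rose by 0.51 ± 0.07 under SGI-1776, with medians of 19.6 and 28.3 CPM, and fell by 0.44 ± 0.07 on the log2 scale under SGI-1776-VHL-02, with 22.3 and 16.5 CPM. CYP1A1 (0.47 against -0.54) and ID3 (0.19 against -0.66) also rose under SGI-1776 and fell under SGI-1776-VHL-02, and ERRFI1 (-0.26 against 0.38) did the reverse. AQP3 rose under SGI-1776 and had -0.17 ± 0.12 under SGI-1776-VHL-02, which did not pass (interaction 0.91 ± 0.17, edgeR adjusted p = 0.00106). PPP1R1B, a phosphatase regulator, did not pass under SGI-1776 (0.11 ± 0.09) and fell under SGI-1776-VHL-02 (-1.03 ± 0.10). For PLAT and IL1B, which fell under SGI-1776, the other step was 0.24 and 0.15 and did not pass, and the interactions were -0.52 and -0.51.

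**Figure D5:**
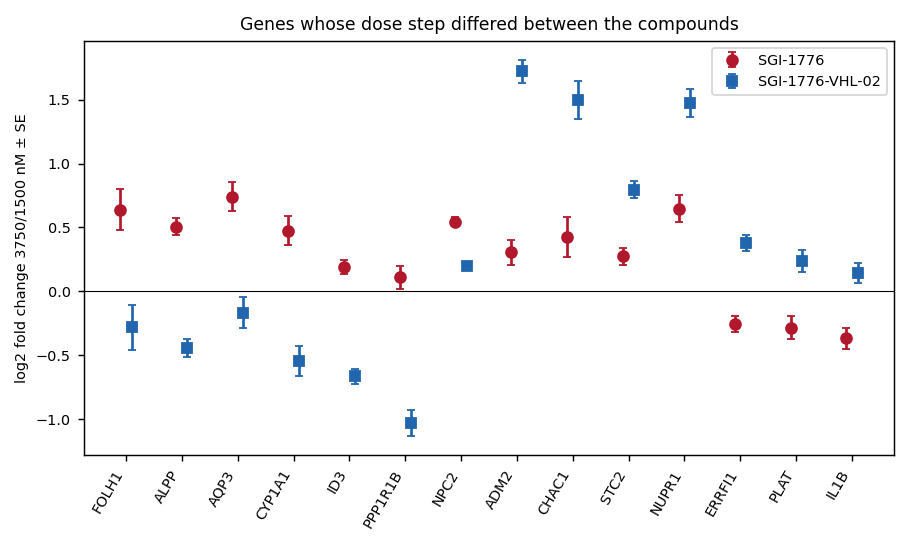
Log2 fold change of 3750 over 1500 nM (y axis, ± SE) for SGI-1776 (red circles) and SGI-1776-VHL-02 (blue squares) in 14 genes with a called interaction. ALPP, CYP1A1 and ID3 lie above 0 for SGI-1776 and below 0 for SGI-1776-VHL-02, and ADM2 and CHAC1 lie far higher for SGI-1776-VHL-02.

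The step from DMSO to 1500 nM was set beside the step from 1500 to 3750 nM; both use the 1500 nM libraries, so their values are given side by side. By the test of their difference, 2 genes (0.0114%) were called by edgeR, NPC2 and UPP1, with 783 genes at an unadjusted p under 0.05 and 2 by DESeq2. NPC2 had a median of 51.6 CPM in DMSO, rose by 0.12 to 1500 nM and by 0.55 to 3750 nM, a difference of 0.42 ± 0.06 (edgeR adjusted p = 0.0012). UPP1, a uridine phosphorylase, had a median of 47.5 CPM in DMSO, fell to 42.3 CPM at 1500 nM (-0.17) and rose to 49.4 CPM at 3750 nM (0.22 ± 0.04), a difference of 0.38 ± 0.07 (edgeR adjusted p = 0.0289). NPC2 was called when any of the 18 libraries was left out, and UPP1 lost its call without 12 of them. Neither was called with libraries summed per Rep (adjusted p = 1 for both), also with the block (0.127 for NPC2 and 0.195 for UPP1), or by voom with the libraries of a Rep as correlated (0.872 and 1). For CDC20 the 2 steps were -0.37 and -0.37, and for BMF 0.67 and 0.57, with 95% intervals of the difference from -0.13 to 0.12 and from -0.34 to 0.13. Over all tested genes 5.28% rose and 7.65% fell in the step from DMSO to 1500 nM. In the cell division lists 71 genes fell in the first step and 70 in the second, and in the 3 lysosomal lists 13 and 29 rose, with 0 genes of either called in the difference. With Rep as a block 13 genes (0.0743%) were called in the difference, 0.0514% higher and 0.0229% lower. The sterol enzymes ACAT2, EBP and FDPS were among the higher, and the sterol efflux gene ABCG1 and GLI3 among the lower. Without the block none of these was called (edgeR adjusted p = 0.926 for ACAT2 and ABCG1 and 0.736 for EBP, FDPS and GLI3). With libraries summed per Rep and the block, edgeR called 0 genes in the difference, with 1124 at an unadjusted p under 0.05. ACAT2 had -0.10 in the first step and 0.35 in the second, EBP -0.05 and 0.33, and FDPS 0.06 and 0.42. ABCG1 had 0.58 and -0.11, and GLI3 0.42 and -0.01.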

How the data were processed

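Poly-A RNA of 30 libraries was sequenced, and the deposited table holds raw counts of reads per gene, made by the authors with featureCounts 1.5.0-p3 on GRCh38/hg38, per the submitters' processing notes. The aligner they used is not named there. The authors' table also gives each gene's length in bases, a column of another unit that entered no test. Of 58735 genes, 20677 had no count. Total counts ran from 22520292 to 48968707 per library; without molecular identifiers, reads may repeat the same molecule.

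Genes kept by filterByExpr (17499) were scaled by TMM and fitted over 30 libraries and 5 groups with the quasi-likelihood test of edgeR 4.0.16 in R 4.3.3, two-sided, with Benjamini-Hochberg adjustment over all 17499 genes at 0.05. The fits of each Rep used 10 sets of 3 libraries (18095 genes). CPM are counts scaled to 1000000 per library after TMM; marker sums use unscaled library sizes. Each SE was taken as |log2 fold change| divided by the square root of F, and 95% intervals use the fit's t quantile. Alternatives used DESeq2 1.42.0 and limma 3.58.1, and the script was tested on simulated data.

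The Rep numbers paired the groups: the Rep 2 less Rep 1 difference correlated between all 10 pairs of groups (0.507 to 0.672 across genes, 0.595 between the SGI-1776 doses), so a fit with Rep as a block stands beside the result. No pair of libraries within the same SGI-1776 dose was a copy, and other pairs were not compared. Named genes were PIM1, PIM2, PIM3, VHL, the 10 highest and 10 lowest protein-coding genes called with and without the block with a mean of at least 5 CPM, up to 4 called members of each gene list (1 where fewer than 3 were called), and 4 each way for the interaction and the step difference; some list members of this rule are not described, and some genes that meet it are not reported here. CTSB, PRC1, CDKN2C, MVD, ACAT2, EBP, FDPS, ABCG1, GLI3 and the non-coding genes were chosen after their values were seen. Members and lists were chosen with earlier results of these data known.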

Additional observations from a re-analysis of the deposited data

Results flagged for a closer look

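Some named genes had a library that stood apart from the other 5 of its group, with a gap to its neighbour that passed Dixon's 95% limit. Chance flags about 1 in 20 groups, and 8 of 324 groups were marked. The library was the highest of its group for PIM1 in SGI-1776 3750 nM replicate 1 (47 CPM, with 44.4 CPM next), SGK1 in SGI-1776 1500 nM replicate 2 (11.5 CPM, with 9.31 CPM next), ITGB4 in SGI-1776 1500 nM replicate 6 (736 CPM, with 685 CPM next), DDIT3 in SGI-1776 3750 nM replicate 6 (17.4 CPM, with 15.2 CPM next), HSPH1 in SGI-1776 3750 nM replicate 3 (191 CPM, with 181 CPM next). It was the lowest for CENPE in SGI-1776 3750 nM replicate 6 (33.3 CPM, with 39.1 CPM next), KIF20A in SGI-1776 1500 nM replicate 2 (65.1 CPM, with 68.6 CPM next), ORC1 in SGI-1776 3750 nM replicate 2 (15.2 CPM, with 19.1 CPM next). Among these, the groups at 1500 and 3750 nM still did not overlap for PIM1, CENPE, KIF20A and DDIT3.

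The dose step differed between SGI-1776 and SGI-1776-VHL-02 by the interaction, with an edgeR adjusted p under 0.05, for 31 of the 162 named genes. The difference, SGI-1776 step less SGI-1776-VHL-02 step in log2 fold change, was above 0 for PPP1R1B (1.14), CYP1A1 (1.02), COL2A1 (0.99), ALPP (0.95), FOLH1 (0.92), AQP3 (0.91), ID3 (0.85), IFIT1 (0.56), CYP1B1 (0.42), NPC2 (0.35), ID2 (0.33), CENPE (0.32), KIF20A (0.29), TIPARP (0.29), PLK1 (0.24), HSPD1 (0.21), MYBL2 (0.19). It was below 0 for ADM2 (-1.42), TNFAIP3 (-1.09), CHAC1 (-1.07), PI3 (-1.02), NUPR1 (-0.82), ERRFI1 (-0.63), STC2 (-0.52), PLAT (-0.52), IL1B (-0.51), SEMA7A (-0.44), ERN1 (-0.32), UPP1 (-0.26), PTX3 (-0.22), VHL (-0.20). The step from 1500 to 3750 nM differed from that between DMSO and 1500 nM for NPC2 (0.42) and UPP1 (0.38). Where both compounds had a step of the same sign, as in PLK1 and KIF20A, the value gives the gap between 2 falls, and where the signs differed, as in ALPP and ID3, it spans 0.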

How the results depend on the processing

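The dose step called 1601 genes, 1834 by DESeq2, 1569 with DESeq2-type size factors in edgeR, 1635 with library size only, 1598 with libraries summed per Rep and a replicate block, and 1110 from its 12 libraries alone, all within 1.5 times. It moved to 3028 with the replicate block, to 0 with libraries summed per Rep without it (1398 at an unadjusted p under 0.05), to 327 by voom with correlated sets and to 907 without a filter on low counts. The interaction (468) moved to 1086, 0, 99 and 229 in the same order, with 720 at an unadjusted p under 0.05 in the summed fit. The step difference (2) moved to 13, 0 and 0, to 1 without a filter, to 1 with library size only and to 0 in the summed fit with the block. The Rep difference (0) moved to 1 by DESeq2 and to 55 without a filter. Leaving out 1 library gave 1172 to 1526 genes in the dose step, 355 to 476 in the interaction, 1 to 2 in the step difference, 1030 to 1607 in Rep 1, 656 to 1290 in Rep 2 and 0 to 0 in the Rep difference. Leaving out libraries under 0.5% mitochondrial counts gave 346 in the interaction and 2 in the step difference, choices made after seeing the data. Of 162 named genes 154 were called, and all 154 lost the call with libraries summed per Rep. By voom 83 lost it, without a filter 34 and with the 12 libraries alone 29. Without libraries under 0.5% mitochondrial counts 13 lost it, and the last 2 settings were also chosen after seeing the data. With libraries summed per Rep and the block 12 lost it, NR1H2, GPNMB, RRAGD, AEN, ADM2, ERN1, AKR1C1, UQCRC1, MRPL4, DUSP7, HBEGF and ATP1B1; of the 154 called, 113 kept the call without any 1 library. The block changed 2 named calls, adding COL2A1 and CHAC1. The summed fit has 2 samples a group; the cause of the other moves was not tested. No value changed its direction. Levels near 1 CPM, as for GPNMB and RRAGD, limit the precision.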

Other observations

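Of 3875 tested genes that do not encode proteins, 59 (1.52%) were higher and 26 (0.671%) lower at 3750 nM, against 4.46% and 4.69% over all tested genes. SNHG6, a host transcript of small nucleolar RNAs, had 35.7 ± 1.73 CPM at 1500 nM and 43.8 ± 3.26 CPM at 3750 nM (SD, n = 6; log2 fold change 0.29 ± 0.07, edgeR adjusted p = 0.00436), and SNHG8 had 16.2 ± 1.07 and 19.6 ± 1.44 CPM (0.27 ± 0.07). The antisense RNA LOXL1-AS1 fell from 419 ± 8.87 to 355 ± 12.5 CPM (-0.24 ± 0.04), with -0.24 in Rep 1 and -0.26 in Rep 2. The long RNAs LINC01116 (-0.34 ± 0.06) and MIR4435-2HG (-0.30 ± 0.05) fell too. Reads of an antisense RNA and of its partner cannot be told apart without the strand setting.

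Pseudogenes of the ferritin chain FTH1 rose mainly through Rep 1. Of 6 tested, 4 rose, and the median log2 fold change was 0.72 in Rep 1 and 0.12 in Rep 2, while FTH1 itself had 0.24 and 0.31. FTH1P2 had 0.81 in Rep 1 and 0.10 in Rep 2, and the difference between the Reps did not pass (edgeR adjusted p = 0.147). Of 84 pseudogenes of ribosomal proteins 8 rose and 1 fell, with medians of 0.18 in Rep 1 and -0.00166 in Rep 2. These copies share reads with their parent genes, so their values are uncertain, and the part of the lower mitochondrial share of Rep 2 in this gap was not tested.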
